A study of Mus musculus with 64 samples.

Results

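The zinc finger protein genes examined here are the mouse genes whose symbol is Zfp followed by a number. They were taken by name from a table of 5647 genes measured in microglia, the resident immune cells of the brain, and no measured value entered the choice. The table held 56 such genes. Counts and medians were taken over all 56 unless stated otherwise. The 3 genes of the Zfp36 family were also described apart from the other 53, since their proteins act on messenger RNA and not on DNA. The symbol groups genes by a protein motif and not by 1 shared function.

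Live microglia, sorted as CD11b+ CD45low cells from brains of wild-type C57BL/6J mice, gave 64 libraries in 17 groups. LPS-treated females numbered 3 at 3 months of age, 5 at 14 months and 3 at 24 months. They had received lipopolysaccharide, a bacterial cell wall component that activates innate immune cells, at 0.5 mg per kg body weight, 2 h before collection. PBS-treated females numbered 4 at 3 months, 2 at 6 months, 3 at 9 months, 4 at 12 months, 5 at 14 months, 5 at 16 months and 3 at 24 months. PBS-treated males numbered 4 at each of 3, 6, 9, 16 and 24 months, 2 at 12 months and 5 at 19 months. The sort gate is the only property that defines the cells, so a change in the cells inside the gate and a change inside each cell cannot be told apart.

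A zinc finger is a short fold of a protein chain held in shape by a zinc ion. In the C2H2 type a pair of cysteines and a pair of histidines hold the ion, and rows of such fingers read DNA sequence. Many mouse Zfp genes join such a row to a KRAB domain, which recruits Trim28 and, through it, the histone methyltransferase Setdb1, and so silences transposons and other DNA. Other Zfp genes activate promoters, anchor chromatin loops or work on RNA. The Zfp36 family has a pair of CCCH fingers instead. These bind AU-rich elements in messenger RNAs of cytokines such as Tnf and bring in the CCR4-NOT complex, which shortens the poly(A) tail and starts decay. Lipopolysaccharide is a classic inducer of Zfp36, also called tristetraprolin, in macrophages.

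Values were fragments per kilobase of transcript scaled to library size (FPKM), which are levels per length, after batch adjustment and rounding to whole numbers by the authors. The sequencing depth is not in the table. The sums of the libraries ranged from 408457 to 554459. All 13 microglia markers looked up were measured, and their summed level was between 19281 and 33197, whereas 0 of 5 neuron markers were in the table. The summed level of 12 neutrophil markers ranged from 492 to 31945. S100a8 and S100a9 had the highest medians of the 12, 2592.5 and 853.5 FPKM, and the study also treats them as response genes of microglia. This sum therefore cannot be read as neutrophils alone. It was 6984 to 18506 in the 3-month-old PBS females, against 2268 to 5259, 492 to 5642, 1986 to 5289 and 2281 to 6472 at 6, 9, 12 and 14 months. In 21 libraries no value lay between 0 and 1, whereas the others held such values. The 21 include every PBS female of 16 months and every PBS male of 12, 16 and 24 months, so this trait of the processing and age cannot be told apart there.

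Zfp36 stood far above the other Zfp genes. Its level averaged 1268 FPKM over the 64 libraries, between 582 and 2846, and ranked 39 among the 5647 genes. Zfp36l1 followed at 139.9 FPKM, and Zfp36l2, the third member of the family, averaged 38.8 FPKM with a range from 11 to 103. Outside the family, the highest level was that of Zfp691 at 131 FPKM. Next came Zfp706 at 85.7 FPKM, a gene that mouse embryonic stem cells need to leave self-renewal, and Zfp207 at 70.2 FPKM, which binds the spindle checkpoint protein Bub3. Zfp710 averaged 69.3 FPKM and Zfp488, known as a partner of Olig2 in oligodendrocytes, 55.7 FPKM.

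Most of the list was low. The median of the 56 means was 16.7 FPKM, against 26.3 FPKM over all genes, and 37 of the 56 averaged under 20 FPKM. The authors had removed genes with a mean under 10 FPKM, and 23 of the 56 lay between 10 and 15 FPKM, so Zfp genes of lower level were not analysed here. Zfp524 was at 0 in 2 libraries, the only zeros among 3584 values of the list. The median SD of log2(value + 1) over the libraries was 0.379 for the Zfp genes and 0.354 for all genes. Among the low genes are several of known role: Zfp809, which silences retroviruses in mouse stem cells, Zfp445, which keeps imprints, Zfp410, an activator of Chd4, and Zfp143, which binds promoters of small nuclear RNA genes, at 13.6, 12.8, 15.6 and 11.9 FPKM.

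**Figure D1:**
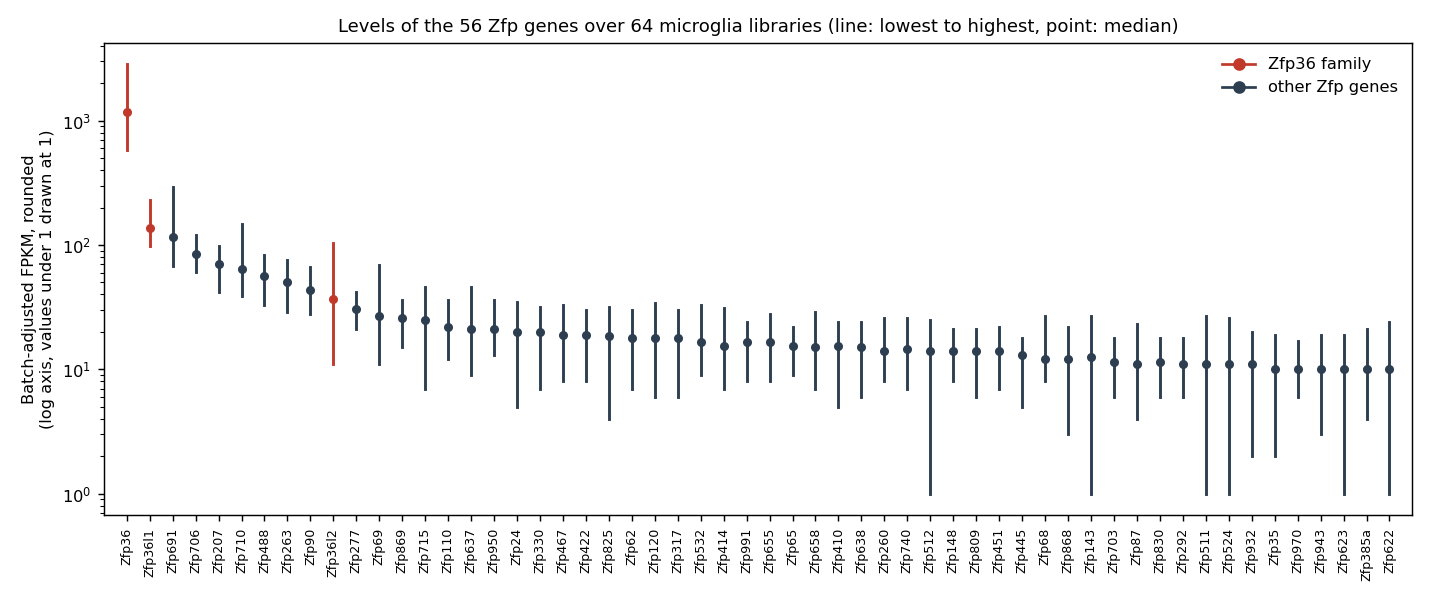
Level of each of the 56 Zfp genes (batch-adjusted FPKM, log axis, from the highest mean on the left) over 64 microglia libraries, where lines run from the lowest to the highest library, points mark medians and values under 1 are drawn at 1. Zfp36 lies between 582 and 2846, whereas 37 of the 56 genes average under 20.

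In GENCODE vM21 on GRCm38, the build that mm10 also names, all 56 symbols were found, on 17 chromosomes. For 19 of them another Zfp gene lay within 100 kb. Near-identical copies limit a few values: 8 members shared over 5% of the 50-base stretches of their transcripts with another coding gene. Zfp991 shared 71.1%, most of it with Zfp992, and Zfp970 shared 46.6%. Zfp524 shared 45%, most of it with Gm44973, Zfp932 38.8% and Zfp488 13.5%. Reads of these genes could be split or moved between copies. The kit was not stated to mark strand, and 5 members overlap other coding genes: Zfp524 with Fiz1 and Gm44973, Zfp740 with Csad, Zfp950 with Grk5, Zfp511 with Tubgcp2 and Zfp87 with Gm26965. Reads from the shared stretches cannot be told apart.

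The question of the ageing series was how microglia change over the adult lifespan of each sex. In females, many Zfp genes were lower at later ages than at 3 months, and the most calls were at 16 months. There, 11 of 56 Zfp genes (19.6%) fell and 0 rose, where passing took a fold above 1.5 and an adjusted p below 0.05 (limma, Benjamini-Hochberg), against 6% of all 5647 genes that fell and 3.01% that rose. The 11 are Zfp69, Zfp414, Zfp691, Zfp532, Zfp658, Zfp292, Zfp715, Zfp36l2, Zfp467, Zfp710 and Zfp623, of which Zfp658, Zfp467 and Zfp623 are named because they passed. Without the Zfp36 family, to which Zfp36l2 belongs, 10 of 53 fell (18.9%). At 12 months 7 fell, against 7.76% of all genes: Zfp260, Zfp991, Zfp317, Zfp825, Zfp120, Zfp658 and Zfp623. At 9 months Zfp691 and Zfp292 fell (background 2.32%), and at 14 months Zfp467 and Zfp710 fell (background 2.11%). At 24 months Zfp65 and Zfp943 fell, against 0.531% of all genes, and at 6 months, with 2 mice, 0 of 56 passed in limma, against 0.301% of all genes, and 12 passed with the p left unadjusted, against 8.15% of all genes. With 1 library left out at a time, 5 to 12 fell at 16 months, the fewest without replicate 1 of 3 months, and 2 to 12 at 12 months, the most without replicate 3 of 12 months and the fewest without replicate 1 of 3 months.

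The 3-month-old females are set against every later age, and the median of all genes also lay below them. The median log2 fold change against 3 months over the 56 Zfp genes was -0.38, -0.36, -0.42, -0.31, -0.31 and -0.30 at 6, 9, 12, 14, 16 and 24 months. Over all genes it was -0.16, -0.19, -0.19, -0.19, -0.18 and -0.02. The Zfp median was thus below that of all genes at each of the 6 ages. Scaling by median ratio, which takes the shift of all genes out, left 2 falls at 12 months and 5 at 16 months. Of all genes 100 fell and 130 rose at 12 months under this scaling, against 438 and 74 without it, and 104 fell and 286 rose at 16 months, against 339 and 170. Of the 56 genes, 48 were below 3 months at 16 months and 44 at 24 months, whether or not they passed. Of all 5647 genes 3927 were below at 16 months and 2932 at 24 months.

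Across all 7 female ages, 8 of 56 Zfp genes passed an F-test of the 6 differences from 3 months (14.3%), against 14.8% of all genes. The direction given here is that of the largest difference. Zfp69, Zfp120, Zfp691, Zfp292, Zfp715 and Zfp710 were lower, against 9.6% of all genes, and Zfp36 and Zfp622 were higher, against 5.21%. Only the calls of Zfp691 and Zfp710 held in each of 35 alternative analyses, with adjusted p between 0.00107 and 0.0293 for Zfp691 and between 0.00342 and 0.0455 for Zfp710. After scaling by median ratio 5 of 56 passed, 2 higher and 3 lower, and the split of all genes turned to 364 higher and 198 lower, against 294 and 542 without it. Without the 16-month females, which are the PBS females with no values between 0 and 1, 4 of 56 passed. For Zfp69, Zfp691, Zfp710 and Zfp715 the largest difference was at 16 months, so this takes away that contrast. A call lost there cannot tell age and processing apart.

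Zfp691 (chr4:119169513-119174195, minus strand) had nearly the same level in the 4 young females and was lower at most later ages. At 3 months its level was 193, 187, 188 and 191 FPKM in the 4 females. At 6 months it was 107 and 86 FPKM, at 9 months 101, 70 and 117 FPKM, and at 12 months 101, 96, 209 and 114 FPKM. At 14 months it was 119, 179, 163, 153 and 95 FPKM, at 16 months 117, 110, 76, 75 and 82 FPKM and at 24 months 190, 143 and 230 FPKM. All females of 6, 9 and 16 months lay below all of 3 months, whereas those of 24 months overlapped them. The log2 fold change was -1.01 ± 0.25 (SE, adjusted p = 0.0295) at 9 months, -1.06 ± 0.22 (SE, adjusted p = 0.00297) at 16 months and -0.04 ± 0.25 (SE, adjusted p = 0.947) at 24 months. The 12-month female at 209 FPKM stands apart from the other 3 of its age.

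Zfp710 (chr7:80024814-80094173, plus strand) was lower at later ages, apart from 1 female of 12 months at 109 FPKM. The 16-month-old females had 55, 73, 48, 47 and 53 FPKM, against 115, 101, 100 and 105 FPKM in the 3-month-old ones, with no overlap. At 14 months the level was 56, 82, 60, 64 and 59 FPKM and at 24 months 61, 69 and 83 FPKM, also all below 3 months. The log2 fold change was -0.72 ± 0.16 (SE, adjusted p = 0.0173) at 14 months, -0.93 ± 0.16 (SE, adjusted p = 0.000879) at 16 months and -0.57 ± 0.19 (SE, adjusted p = 0.0901) at 24 months, the last of which did not pass.

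Zfp69 (chr4:120930137-120951699, minus strand), a KRAB gene within a diabetes susceptibility locus of the mouse, had 24, 32, 15, 18 and 19 FPKM at 16 months, against 56, 48, 48 and 47 FPKM at 3 months, a log2 fold change of -1.21 ± 0.26 (SE, adjusted p = 0.00397). Its levels at 9 months, 69, 20 and 36 FPKM, spread on both sides of the 3-month values. Zfp715 (chr7:43296197-43313294, minus strand) had 27, 9, 12, 16 and 16 FPKM at 16 months, against 32, 38, 30 and 33 FPKM at 3 months, with all 5 older females below the 4 young ones. Its log2 fold change was -1.09 ± 0.24 (SE, adjusted p = 0.00424). At 24 months Zfp715 was at 22, 21 and 21 FPKM, also below all of 3 months, and its log2 fold change of -0.61 ± 0.27 (SE) did not pass (adjusted p = 0.21). Across the 7 ages, the call of Zfp69 was lost without any 1 of the 4 females of 3 months or without replicate 3, 4 or 5 of 16 months. It was also lost under scaling by median ratio, under scaling to the same total and without all females of 16 months. That of Zfp715 was lost without replicate 2 or 4 of 3 months or replicate 2 or 3 of 16 months. It was also lost without all females of 16 months and with a replicate block. Leaving out all females of 16 months takes away the largest difference of both genes. The adjusted p rose to at most 0.209 for Zfp69 and 0.11 for Zfp715 over the alternatives.

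**Figure D2:**
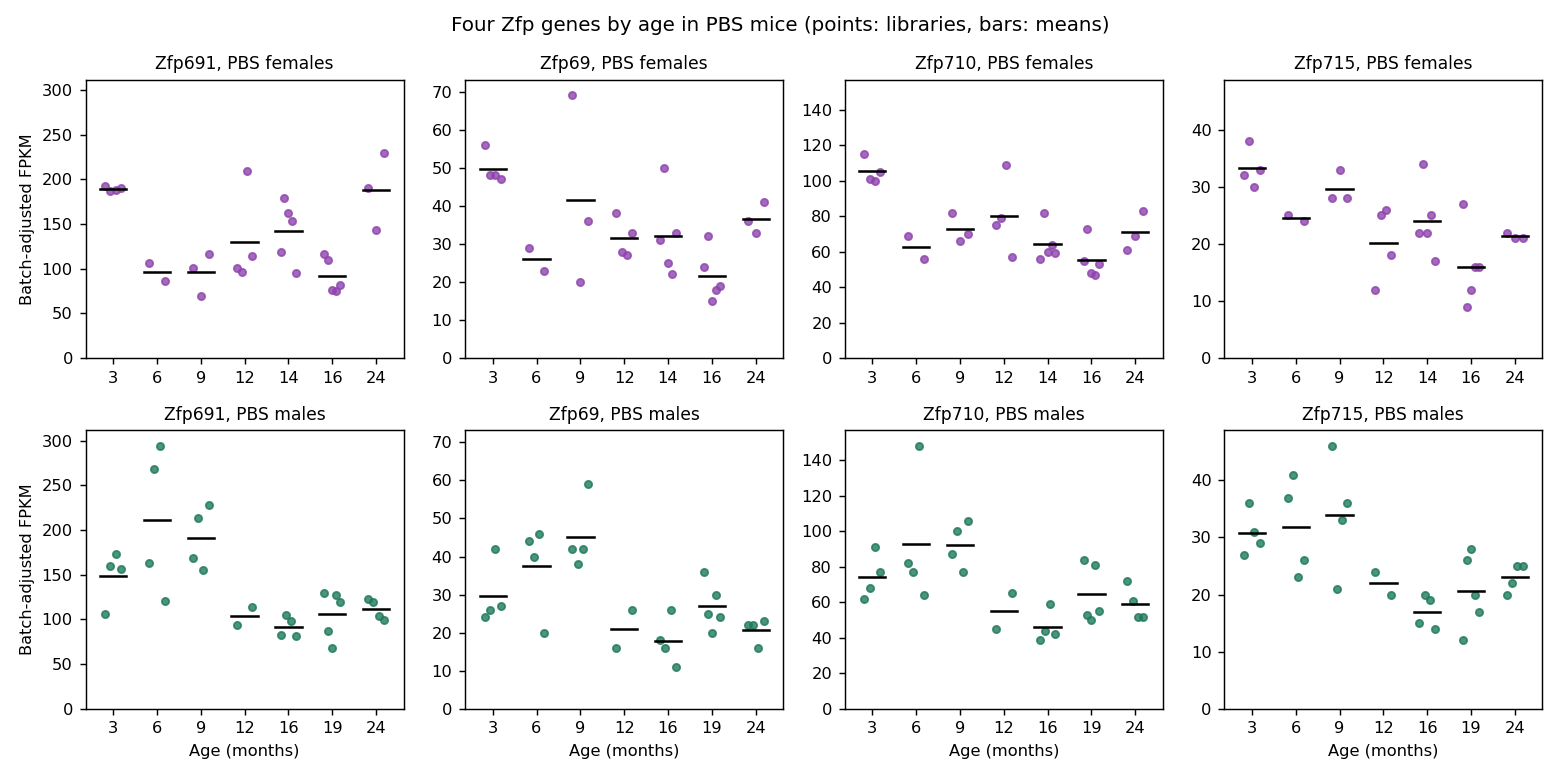
Levels of Zfp691, Zfp69, Zfp710 and Zfp715 (batch-adjusted FPKM) by age in months in PBS females (top) and PBS males (bottom), with points for libraries and bars for group means. At 16 months Zfp691 lies at 75 to 117 in females and 81 to 105 in males, against 187 to 193 in females and 106 to 173 in males at 3 months.

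These 4 genes passed across ages in each sex, so the 250 bases before their annotated starts are shown, with that of Zfp36, the most abundant member. They come from the RefSeq promoter table of GRCm38.p6, which held 44 of the 56 genes, and are written 5′ to 3′ on the strand of the gene. Capitals mark GGGCGG (the GC box bound by Sp1), CCGGAAG (an ETS site) and CCAAT (the CCAAT box), each on either strand. For Zfp69 and Zfp691 the table holds 2 starts, and the first was used. For Zfp36 RefSeq places the start inside the span that GENCODE gives the gene, so the stretch shown lies within that span.

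Zfp691, chr4:119174196-119174445: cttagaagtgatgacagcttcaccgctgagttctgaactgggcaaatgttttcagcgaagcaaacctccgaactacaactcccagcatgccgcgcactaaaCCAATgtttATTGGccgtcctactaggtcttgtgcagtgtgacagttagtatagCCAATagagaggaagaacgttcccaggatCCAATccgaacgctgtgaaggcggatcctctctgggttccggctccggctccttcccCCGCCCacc

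Zfp69, chr4:120951702-120951951: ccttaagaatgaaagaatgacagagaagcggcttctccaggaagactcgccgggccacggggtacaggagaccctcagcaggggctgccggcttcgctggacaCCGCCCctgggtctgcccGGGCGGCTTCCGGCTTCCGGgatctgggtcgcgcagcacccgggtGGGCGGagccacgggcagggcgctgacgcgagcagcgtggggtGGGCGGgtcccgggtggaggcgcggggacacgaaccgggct

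Zfp710, chr7:80024564-80024813: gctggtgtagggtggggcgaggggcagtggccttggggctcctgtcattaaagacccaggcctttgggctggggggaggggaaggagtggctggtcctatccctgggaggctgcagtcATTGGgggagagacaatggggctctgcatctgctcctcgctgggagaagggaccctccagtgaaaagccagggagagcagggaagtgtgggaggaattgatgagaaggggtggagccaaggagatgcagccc

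Zfp715, chr7:43313301-43313550: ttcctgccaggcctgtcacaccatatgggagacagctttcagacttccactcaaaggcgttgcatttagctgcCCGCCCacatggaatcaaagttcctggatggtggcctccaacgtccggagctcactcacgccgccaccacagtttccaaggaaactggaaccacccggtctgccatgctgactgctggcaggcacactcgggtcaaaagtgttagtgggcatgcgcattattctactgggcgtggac

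Zfp36, chr7:28379229-28379478: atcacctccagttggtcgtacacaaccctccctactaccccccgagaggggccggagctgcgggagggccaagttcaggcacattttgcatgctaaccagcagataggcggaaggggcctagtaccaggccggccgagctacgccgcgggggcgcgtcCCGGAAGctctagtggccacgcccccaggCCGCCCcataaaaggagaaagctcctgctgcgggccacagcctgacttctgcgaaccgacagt

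CCAAT was in 54.5% of the 44 Zfp promoters, against 36.4% of the 4571 promoters of measured genes. GGGCGG was in 56.8% of Zfp promoters, against 59% of all, and CCGGAAG in 22.7%, against 16.9%. The promoter of Zfp691 holds CCAAT 4 times, counted on either strand, and 1 GC box. Of the marked motifs, that of Zfp715 holds only a GC box and that of Zfp710 only a CCAAT box. The letters of an AP-1 site, TGACTCA, were in 4.55% of Zfp promoters and 2.65% of all. Those of a cAMP response element, TGACGTCA, were in 0 of the 44, against 2.95% of all. None of the motifs was in all 5 promoters shown. The GC content had a median of 55.8% in Zfp promoters, against 59.2% in all.

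Of the other genes that passed across the female ages, Zfp120 was lowest at 12 months, at 8, 12, 6 and 21 FPKM, against 29, 34, 27 and 24 FPKM at 3 months, a log2 fold change of -1.34 ± 0.30 (SE, adjusted p = 0.00812). Its adjusted p over the ages reached 0.0868 in the alternatives, and the call was lost without replicate 1, 2 or 3 of 3 months or replicate 1 of 12 months, and under either scaling. Zfp292 had 10, 8 and 9 FPKM at 9 months and 10, 7, 9, 11 and 11 FPKM at 16 months, against 15, 18, 18 and 16 FPKM at 3 months, with no overlap at either age. Its call was lost in 13 of the 26 analyses that each left out 1 library, under either scaling, with a replicate block and without the females of 16 months (adjusted p up to 0.107).

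Zfp622, whose human counterpart ZNF622 takes part in the maturation of the large ribosomal subunit, moved the other way. Its level was 3, 3, 3 and 7 FPKM at 3 months, 9, 0.14 and 2 FPKM at 9 months, 8, 10, 11, 20 and 20 FPKM at 14 months and 11, 14 and 14 FPKM at 24 months. All females of 14 and 24 months lay above all of 3 months. The log2 fold change was 1.55 ± 0.46 (SE, adjusted p = 0.0531) at 14 months and 1.55 ± 0.52 (SE, adjusted p = 0.101) at 24 months, neither of which passed by itself, while the test over all ages did (adjusted p = 0.0239). It was lost without replicate 3 of 9 months and with a replicate block (adjusted p up to 0.0541 over the alternatives). At these levels a change of 1 FPKM is a large share of the value.

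At 24 against 3 months, Zfp65 had 10, 10 and 13 FPKM in the older females and 18, 19, 19 and 19 FPKM in the younger ones, a log2 fold change of -0.73 ± 0.19 (SE, adjusted p = 0.0446). Zfp943 had 6, 11 and 3 FPKM in the older females and 16, 19, 16 and 12 FPKM in the younger ones, a log2 fold change of -1.25 ± 0.34 (SE, adjusted p = 0.0457). Neither pair of groups overlapped. The call of each was lost in 6 of 7 analyses that left out 1 library, without each female of 3 months and without 2 of the 3 females of 24 months, with adjusted p up to 0.192 and 0.183 over all alternatives. Fitted on the 7 libraries of these ages alone, 7 Zfp genes passed, 1 higher and 6 lower, among 470 of all 5647 genes, 304 higher and 166 lower. In GENCODE, 6 other Zfp genes lie within 100 kb of Zfp65, and it shares 5.43% of its 50-base stretches with other coding genes, most with Zfp738.

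Other gene groups moved beside the list. Of the KRAB cofactors looked up, 8 of 16 were measured. At 16 months Setdb1 and Atf7ip fell, Setdb1 by a log2 fold change of -0.99 (adjusted p = 0.0169), whereas Trim28 was at -0.15 (adjusted p = 0.689). Over the 7 female ages 0 of the 8 passed, and over the 7 male ages 0. Of 24 other measured C2H2 transcription factors, 1 rose (Klf13) and 3 fell (Egr2, Klf2 and Sall1) over the female ages. Of the 13 microglia markers, 8 fell at 12 months and 7 at 16 months in females, with medians of -0.67 and -0.59 on the log2 scale. Their summed level was 21258 to 26755 at 16 months, against 31196 to 33197 at 3 months. The 7 border macrophage markers summed to 236 to 332 at 12 months, against 491 to 583 at 3 months, and 5 fell. Of 9 T and NK cell markers 4 were measured, and 3 rose at 16 months and 4 at 24 months, with sums of 116 to 331 and 249 to 376, against 48 to 57 at 3 months. Over the 7 female ages 2 of 6 measured monocyte markers rose and 2 fell, 4 of 7 border macrophage markers fell and 4 of 4 T and NK cell markers rose. The part of these cell types in the falls of the Zfp genes was not tested.

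In males fewer Zfp genes passed, and those that passed across ages were lowest at 16 months, while at 6 and 9 months their means lay above that of 3 months. Across the 7 male ages, 5 of 56 (8.93%) passed, against 8.36% of all genes. All 5 fell: Zfp69, Zfp691, Zfp532, Zfp715 and Zfp710, each with its largest difference at 16 months, against 2.64% of all genes that fell. At single ages, Zfp715 and Zfp868 fell at 16 months, against 1.77% of all genes. At 6, 9, 12, 19 and 24 months 0 of 56 passed in limma, against 0%, 0.0354%, 0.903%, 3.05% and 2.85% of all genes, while 1, 3, 6, 3 and 1 passed with the p left unadjusted, against 3.21%, 4.82%, 8.48%, 6.16% and 7.05% of all genes. The median log2 fold change of the 56 was 0.00, 0.17, -0.20, -0.28, -0.13 and -0.05 at 6, 9, 12, 16, 19 and 24 months. Over all genes it was -0.04, 0.09, -0.01, 0.00, 0.06 and 0.10.

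Zfp691 had 106, 160, 173 and 157 FPKM in the 3-month-old males. At 6 months its level was 163, 268, 294 and 121 FPKM and at 9 months 169, 213, 155 and 228 FPKM. At 12 months it was 94 and 114 FPKM, at 16 months 83, 105, 98 and 81 FPKM, at 19 months 130, 87, 68, 127 and 120 FPKM and at 24 months 123, 119, 104 and 99 FPKM. The males of 6 and 9 months lay between 121 and 294, and all of 16 months lay below them, with the lowest young male at 106. Against 3 months the log2 fold change was -0.68 ± 0.23 (SE) at 16 months and -0.40 ± 0.23 (SE) at 24 months, with adjusted p of 0.08 and 0.491, and the test over all ages gave an adjusted p of 0.00253.

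Zfp69 had 18, 16, 26 and 11 FPKM at 16 months and 42, 38, 42 and 59 FPKM at 9 months, against 24, 26, 42 and 27 FPKM at 3 months. Its log2 fold change was -0.74 ± 0.25 (SE) at 16 months and 0.60 ± 0.25 (SE) at 9 months. Zfp710 had 39, 44, 59 and 42 FPKM at 16 months, against 62, 68, 91 and 77 FPKM at 3 months, with all 4 older males below the young ones. At 6 and 9 months Zfp710 had 82, 77, 148 and 64 FPKM and 87, 100, 77 and 106 FPKM. Zfp715 had 15, 20, 19 and 14 FPKM at 16 months, against 27, 36, 31 and 29 FPKM at 3 months, also with no overlap, and a log2 fold change of -0.83 ± 0.23 (SE, adjusted p = 0.0263). At 6 and 9 months Zfp715 had 37, 41, 23 and 26 FPKM and 46, 21, 33 and 36 FPKM. Zfp532, whose human counterpart ZNF532 works with ZNF592 and ZNF687, had 9, 11, 13 and 11 FPKM at 16 months, against 12, 18, 21 and 20 FPKM at 3 months, a log2 fold change of -0.63 ± 0.23 (SE, adjusted p = 0.108). At 6 and 9 months Zfp532 had 26, 25, 33 and 15 FPKM and 18, 25, 17 and 26 FPKM. Its call over all ages was lost without replicate 3 or 4 of 3 months or replicate 1 of 16 months because its largest difference then missed the fold of 1.5 (adjusted p up to 0.0276), and that of Zfp715 without replicate 4 of 9 months or replicate 1 or 4 of 16 months (up to 0.0623).

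Each of the 5 male calls had its largest difference at 16 months. The subsets that follow leave out either most of the younger males or those of 12 and 16 months. They take away much of that contrast, so a call lost there cannot tell age and processing apart. Among the PBS males with no values between 0 and 1, which leaves 2 of 3 months, 4 of 19 months and those of 12, 16 and 24 months, 0 of 56 passed, and 92 of all genes did. Without the males of 12 and 16 months 1 of 56 passed, Zfp69, whose largest difference was then a rise of 0.60 on the log2 scale at 9 months (adjusted p = 0.032). The summed level of the neutrophil markers was 2826 to 4683, 2227 to 3442 and 1370 to 1915 at 3, 6 and 9 months, and 7668 to 12456, 9149 to 31945, 7186 to 13392 and 5661 to 10515 at 12, 16, 19 and 24 months. In females the sum was 2686 to 15399 at 16 months, against 6984 to 18506 at 3 months. The 6 measured monocyte markers summed to 519 to 1328 in males of 16 months, against 216 to 353 at 3 months, and 5 rose. The 4 T and NK cell markers summed to 225 to 612 at 16 months and 205 to 507 at 24 months, against 48 to 78 at 3 months, and 4 rose at each age. The part of these cell types in the male results was not tested.

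The female and male series are separate mice. Zfp69, Zfp691, Zfp710 and Zfp715 passed across ages in each, which is 50% of the 8 female and 80% of the 5 male Zfp genes. Over all genes 218 passed in each, 26.1% of the 836 female and 46.2% of the 472 male ones. In each sex the largest difference of the 4 genes from 3 months was at 16 months, and it was a fall. The PBS libraries of 16 months, 5 of females and 4 of males, all have no values between 0 and 1. The batch adjustment was also made over both sexes together. A shared age and a shared trait of the processing therefore cannot be told apart in this overlap. In males the tests at 16 months alone left Zfp691, Zfp69 and Zfp710 outside the threshold, with adjusted p of 0.08, 0.0834 and 0.0549. Compared directly, females against males over the 6 shared ages, 0 of 56 Zfp genes passed, against 0.23% of all genes, and 1 passed unadjusted, against 0.673%. The median difference was -0.03 on the log2 scale, and 0.00 over all genes. The study lists Eif2s3y, a Y-linked gene, as differing between the sexes at most ages. Here it was at 4 to 41 FPKM in females, LPS-treated ones included, and at 8 to 36 FPKM in males. The adjusted values thus overlapped between the sexes even for this gene, the cause of which was not tested. The absence of Zfp calls therefore does not show equal levels in the sexes. At 9 months alone Zfp691 was lower in females, with 101, 70 and 117 FPKM, against 169, 213, 155 and 228 FPKM in males and no overlap, a log2 difference of -1.0 ± 0.25 (SE) (adjusted p = 0.0294, background 1.13%). The change from 3 to 24 months differed between the sexes for 0 of 56 Zfp genes in limma, against 0.0177% of all genes, and for 4 unadjusted, against 7.05%.

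Within a library, the median of the 56 Zfp genes lay below that of all genes in each of the 64 libraries. The mean gap, in log2(value + 1), was -0.47 in females of 3 months, -0.70, -0.69, -0.71, -0.55 and -0.62 at 6, 9, 12, 14 and 16 months, and -0.64 at 24 months. In males it was -0.48, -0.55 and -0.51 at 3, 6 and 9 months, and -0.79, -0.79, -0.72 and -0.70 at 12, 16, 19 and 24 months. The gap sets a list of low genes, with a median of the means of 16.7 FPKM, against all genes, with 26.3 FPKM. The gap therefore cannot tell a shift of the Zfp genes from one of low genes in general, and it was not taken after scaling. After LPS it was -0.59, against -0.47 after PBS, at 3 months, -0.75, against -0.55, at 14 months and -0.57, against -0.64, at 24 months. The males of 12 months and older lay between -0.95 and -0.65, whereas those of 3, 6 and 9 months lay between -0.67 and -0.42, with an overlap from 3 and 9 months.

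**Figure D3:**
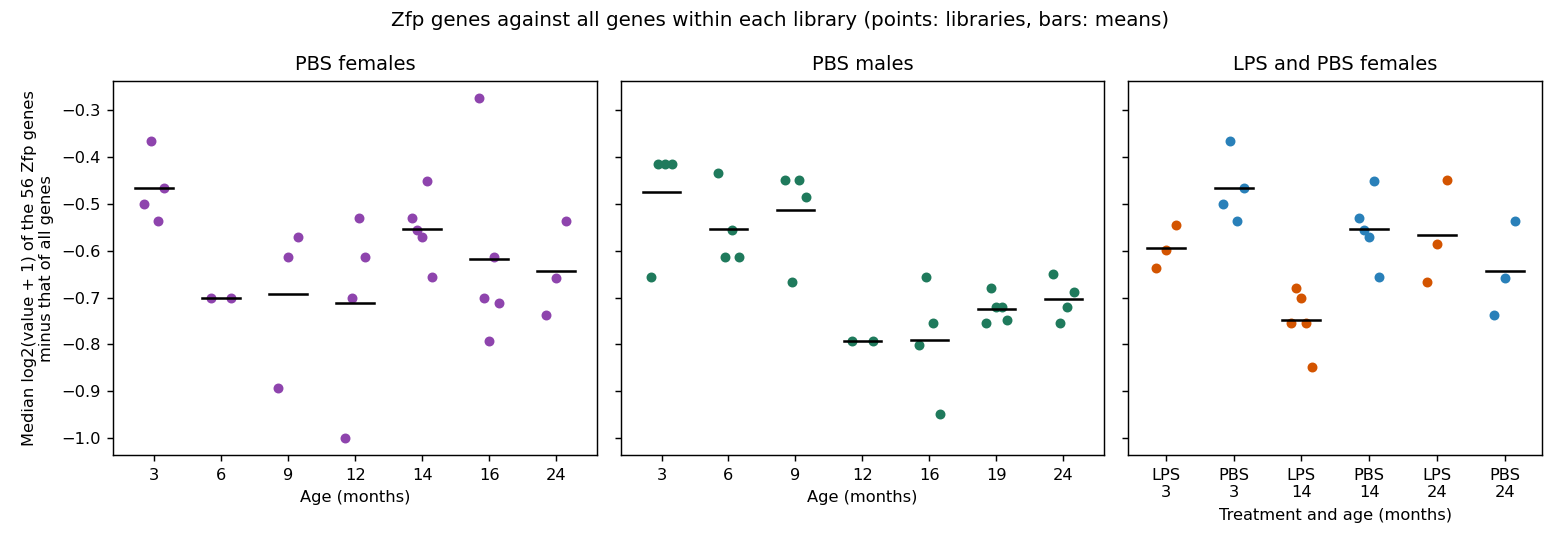
Median log2(value + 1) of the 56 Zfp genes minus that of all genes in each library, by age in months in PBS females (left) and PBS males (middle) and by treatment and age in LPS and PBS females (right), with points for libraries and bars for group means. In females the mean is -0.71 at 12 months, against -0.47 at 3 months, and in males it is -0.79 at 12 months, against -0.48 at 3 months.

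The LPS series addressed how microglia of young, middle-aged and old females react to an inflammatory challenge. Its PBS females of 3, 14 and 24 months are those of the ageing series, so the comparisons share them. In the Zfp36 family, Zfp36l2 was lower after LPS at 3 and 14 months, while Zfp36 and Zfp36l1 did not pass at any age. Zfp36l2 (chr17:84183931-84187947, minus strand) had 28, 26 and 24 FPKM in LPS females of 3 months, against 52, 68, 60 and 79 FPKM in PBS females. At 14 months it had 21, 29, 20, 18 and 16 FPKM after LPS, against 42, 37, 44, 39 and 65 FPKM after PBS. At 24 months it had 32, 50 and 37 FPKM after LPS, against 53, 63 and 54 FPKM after PBS. At each of the 3 ages all LPS females lay below all PBS females. The log2 fold change was -1.27 ± 0.21 (SE, adjusted p = 0.00021) at 3 months, -1.09 ± 0.17 (SE, adjusted p = 0.000794) at 14 months and -0.52 ± 0.22 (SE, adjusted p = 0.123) at 24 months. The call was kept in 16 of 16 alternatives at 3 months and in 19 of 19 at 14 months. The response at 24 months differed from that at 3 months by 0.75 ± 0.30 (SE) on the log2 scale, which did not pass (adjusted p = 0.334).

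Zfp36 (chr7:28376784-28380253, minus strand) had 1228, 1111 and 1391 FPKM in LPS females of 3 months, against 1014, 922, 1011 and 1185 FPKM in PBS females. At 14 months it had 2573, 1633, 2022, 1570 and 1412 FPKM after LPS, against 1305, 1102, 985, 1189 and 1818 FPKM after PBS, and at 24 months 1167, 939 and 838 FPKM, against 1104, 1283 and 974 FPKM. The groups overlapped at each age. Its log2 fold change was 0.27 ± 0.19 (SE), 0.52 ± 0.16 (SE) and -0.20 ± 0.21 (SE) at 3, 14 and 24 months, with adjusted p of 0.4, 0.0862 and 0.563. Zfp36l1 (chr12:80107754-80113013, minus strand) had 230, 157, 166, 138 and 184 FPKM after LPS at 14 months, against 135, 115, 113, 137 and 170 FPKM after PBS, a log2 fold change of 0.38 ± 0.14 (SE, adjusted p = 0.158). At 3 and 24 months the log2 fold change of Zfp36l1 was 0.04 and 0.17.

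In the ageing series Zfp36 passed over the 7 female ages (adjusted p = 0.026), with its largest difference at 6 months, where the 2 females had 1916 and 2307 FPKM. The log2 fold change there was 1.03 ± 0.27 (SE) and did not pass by itself (adjusted p = 0.0911). The call over all ages was lost without either of these 2 females and without the females of 16 months (adjusted p up to 0.0986 over the alternatives). At 16 months the level was 620, 1004, 989, 1189 and 933 FPKM and at 24 months 1104, 1283 and 974 FPKM. Immediate-early genes, to which Zfp36 is often counted, rise when cells are isolated. The summed level of 18 measured genes of that kind was 9168 to 10225 in the 6-month-old females, against 5590 to 6462 in the 3-month-old ones, and its part in the level of Zfp36 was not tested. In males Zfp36 did not pass over the ages (adjusted p = 0.45), and its 24-month-old males had 1166, 1048, 2846 and 1468 FPKM. The male at 2846 FPKM is the highest of the 64 libraries for Zfp36, and the highest isolation sum, 14781, was also in a male of 24 months. In females Zfp36l2 fell at 16 months (29, 52, 41, 34 and 24 FPKM, against 52, 68, 60 and 79 FPKM at 3 months) by a log2 fold change of -0.86 ± 0.28 (SE, adjusted p = 0.0441).

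Messenger RNAs with AU-rich elements that the family is known to bind were mostly higher after LPS at 3 months. The list holds inflammation genes such as Tnf and Il1b and was chosen with earlier results known. Its rise is therefore no result about the Zfp36 family. Of 21 looked up, 16 were measured, and at 3 months 15 rose and 1, Fos, fell, with a median log2 fold change of 1.76, against -0.14 over all genes. At 14 months 7 of the 16 rose and 0 fell, and at 24 months 6 rose and 1 fell. Tnf, the classic target of tristetraprolin, had a log2 fold change of 1.75, 0.92 and 0.32 at 3, 14 and 24 months, with adjusted p of 4.57e-05, 0.0178 and 0.442. Of 35 partners in this decay pathway 21 were measured. At 3 months Btg1 and Mapkapk2, the kinase that phosphorylates tristetraprolin, rose, and Mapk14 fell. Over the female ages 13 of the 16 bound messenger RNAs rose and 1 fell, and over the male ages 9 rose and 0 fell. Of all genes 294 rose and 542 fell over the female ages, and 323 rose and 149 fell over the male ages.

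Among the 53 other Zfp genes, 7 were lower and 1 was higher after LPS at 3 months, so that with Zfp36l2 9 of 56 (16.1%) passed, 1 higher and 8 lower. Of all genes 11.2% passed, 6.16% higher and 5.08% lower. Zfp691, Zfp69, Zfp710, Zfp414, Zfp825, Zfp970 and Zfp532 fell, and Zfp622 rose. The median log2 fold change of the 56 was -0.20, against -0.14 over all genes. After scaling by median ratio, 5 of 56 passed, 1 higher and 4 lower, and the split of all genes moved to 441 higher and 145 lower, against 348 and 287 without it.

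Zfp691 had 84, 89 and 73 FPKM in LPS females of 3 months, against 193, 187, 188 and 191 FPKM in PBS females, a log2 fold change of -1.21 ± 0.21 (SE, adjusted p = 0.000374). Zfp710 had 56, 54 and 54 FPKM after LPS, against 115, 101, 100 and 105 FPKM after PBS, a log2 fold change of -0.93 ± 0.18 (SE, adjusted p = 0.00118). Zfp69 had 30, 16 and 18 FPKM after LPS, against 56, 48, 48 and 47 FPKM after PBS, a log2 fold change of -1.23 ± 0.26 (SE, adjusted p = 0.00254). In none of the 3 genes did the groups overlap, and each call was kept in 16 of 16 alternatives. Zfp715, the other gene of the 4 that passed in each sex with age, had 38, 31 and 28 FPKM after LPS, against 32, 38, 30 and 33 FPKM after PBS, and did not pass at a log2 fold change of -0.05 ± 0.31 (SE, adjusted p = 0.948).

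The other 5 calls at 3 months were less steady. Zfp532 had 17, 13 and 13 FPKM after LPS, against 25, 24, 24 and 24 FPKM after PBS, and Zfp622 had 8, 7 and 11 FPKM, against 3, 3, 3 and 7 FPKM. The log2 fold changes were -0.73 ± 0.23 (SE) for Zfp532, 1.00 ± 0.33 (SE) for Zfp622, -0.96 ± 0.30 (SE) for Zfp414, -0.77 ± 0.24 (SE) for Zfp825 and -0.77 ± 0.25 (SE) for Zfp970. The calls of Zfp825 and Zfp970 were lost without any 1 of the 7 libraries, and those of Zfp622, Zfp532 and Zfp414 without any of 6, 6 and 5 of them. Over all alternatives the adjusted p reached 0.144 for Zfp825, 0.165 for Zfp970, 0.2 for Zfp622, 0.143 for Zfp532 and 0.234 for Zfp414. The sequence copies of Zfp970 named above also bear on its value.

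The levels of Zfp691, Zfp69 and Zfp710 in LPS females of 3 months can be set beside those of PBS females of 16 months, 75 to 117, 15 to 32 and 47 to 73 FPKM, and the 4 PBS females of 3 months are the reference of both comparisons. The neutrophil markers summed to 2152 to 3713 in LPS females of 3 months, against 6984 to 18506 in these 4 mice, and 8 of the 12 markers fell. Of the 13 microglia markers 5 fell, and their sum was 23650 to 28319 after LPS, against 31196 to 33197 after PBS. Of the 4 T and NK cell markers 2 rose, Ccl5 and Ms4a4b, with sums of 173 to 278 after LPS, against 48 to 57 after PBS. Ccl5 had the highest median of the 4 over all libraries, 99.5 FPKM, and the study also treats it as a response gene of microglia. This sum therefore cannot be read as T and NK cells alone. The part of these cell types in the falls was not tested. Over all alternatives, the adjusted p for LPS at 3 months was at most 0.00509 for Zfp691, 0.0315 for Zfp69 and 0.00886 for Zfp710.

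At 14 months 2 of 56 passed, Zfp36l2 and Zfp292, both lower. Of all 5647 genes 102 passed, 79 higher and 23 lower (0.407%). Zfp292 had 9, 9, 7, 7 and 6 FPKM after LPS, against 15, 15, 16, 10 and 14 FPKM after PBS, and a log2 fold change of -0.80 ± 0.21 (SE, adjusted p = 0.0418). Its call was lost without any 1 of 7 of the 10 libraries (adjusted p up to 0.154 over the alternatives). Zfp691 had 94, 84, 89, 82 and 104 FPKM after LPS, against 119, 179, 163, 153 and 95 FPKM after PBS, a log2 fold change of -0.61 ± 0.17 (SE, adjusted p = 0.0563), and did not pass. The median of the 56 was -0.15, against 0.02 over all genes.

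At 24 months the Zfp genes that passed were others, and most were higher. Of 56, 4 rose and 1 fell (8.93%), against 4.27% of all genes that rose and 5.44% that fell. Zfp488 had 73, 80 and 71 FPKM after LPS, against 41, 35 and 52 FPKM after PBS, a log2 fold change of 0.81 ± 0.20 (SE, adjusted p = 0.015). Zfp65 had 21, 18 and 19 FPKM after LPS, against 10, 10 and 13 FPKM after PBS, a log2 fold change of 0.77 ± 0.21 (SE, adjusted p = 0.025). Zfp638, a nuclear protein with a part in fat cell differentiation and in silencing unintegrated retroviral DNA, had 16, 24 and 20 FPKM after LPS, against 12, 14 and 6 FPKM after PBS, a log2 fold change of 0.90 ± 0.23 (SE, adjusted p = 0.0177). Zfp110, which binds the p75 neurotrophin receptor, had 26, 34 and 32 FPKM after LPS, against 21, 20 and 15 FPKM after PBS, a log2 fold change of 0.69 ± 0.21 (SE, adjusted p = 0.0352). Zfp385a, a cofactor of p53 also known as Hzf, was lower, at 7, 7 and 4 FPKM after LPS, against 17, 13 and 21 FPKM after PBS, a log2 fold change of -1.37 ± 0.37 (SE, adjusted p = 0.0229). The groups did not overlap in any of these 5 genes.

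The PBS females of 24 months were low in the 4 genes that rose. Zfp65 fell in these same 3 mice against 3 months, and its level after LPS at 24 months can be set beside that of PBS females of 3 months (18, 19, 19 and 19 FPKM). The 5 calls were each lost in 2 to 5 of the 6 analyses that left out 1 library, and in the fit of these 6 libraries alone 0 of 56 passed (adjusted p up to 0.164 for Zfp638), while 91 of all genes did. Without replicate 1 of the PBS females 1 of 56 passed, and without replicate 3 of the LPS females 6 did. Among the 12 neutrophil markers 3 rose, with sums of 4006 to 15984 after LPS, against 3229 to 8479 after PBS. Of the 18 genes that rise on cell isolation 6 fell and 1 rose, with sums of 5254 to 6075 after LPS, against 8248 to 9044 after PBS and no overlap. Of the 4 T and NK cell markers 2 fell, with sums of 75 to 250 after LPS, against 249 to 376 after PBS. The part of these in the 5 calls was not tested. The median of the 56 was 0.03, against -0.15 over all genes, and after scaling by median ratio the Zfp genes still numbered 4 higher and 1 lower, while all genes moved to 366 higher and 145 lower, against 241 and 307 without it.

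The response to LPS was not shown to differ between ages for any Zfp gene. In limma 0 of 56 passed for 14 against 3 months (background 0.301%), and 3 passed unadjusted (background 8.04%). For 24 against 3 months 0 of 56 passed (background 0%) and 12 passed unadjusted (background 10.2%). For Zfp710 the response at 24 months exceeded that at 3 months by 0.85 ± 0.26 (SE) on the log2 scale (adjusted p = 0.208), and for Zfp488 by 1.02 ± 0.28 (SE, adjusted p = 0.158).

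**Figure D4:**
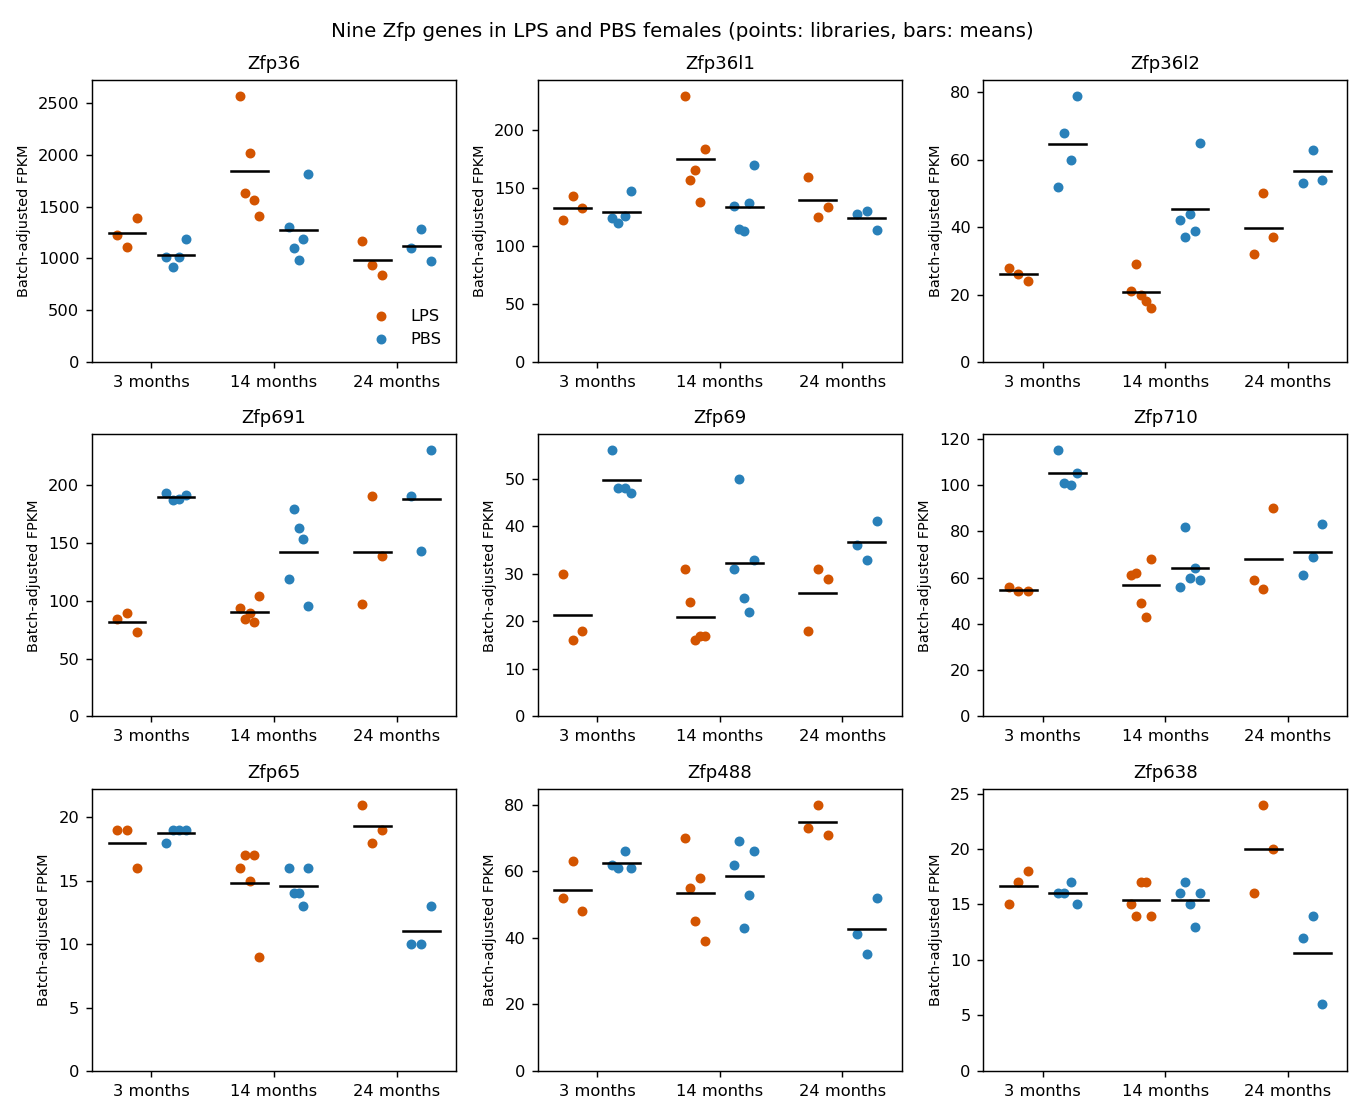
Levels of 9 Zfp genes (batch-adjusted FPKM) in LPS females (orange, left of each pair) and PBS females (blue) of 3, 14 and 24 months, with points for libraries and bars for means. Zfp36l2 lies at 24 to 28 after LPS, against 52 to 79 after PBS, at 3 months, and the groups of Zfp65, Zfp488 and Zfp638 are apart at 24 months.

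Of the other abundant members, Zfp207 (chr11:80383279-80405733) had log2 fold changes against 3 months between -0.19 and 0.06 in females and between -0.22 and 0.07 in males, and none passed. Zfp706 was lower in females of 16 months by a log2 fold change of -0.51 ± 0.15 (SE), with an adjusted p of 0.0273 and a fold under 1.5. In LPS females of 3 months Zfp706 had 81, 84 and 79 FPKM, against 101, 120, 101 and 112 FPKM in PBS females (adjusted p = 0.089). Zfp706 and Zfp488 share 3.54% and 13.5% of their 50-base stretches with other coding genes.

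**Figure D5:**
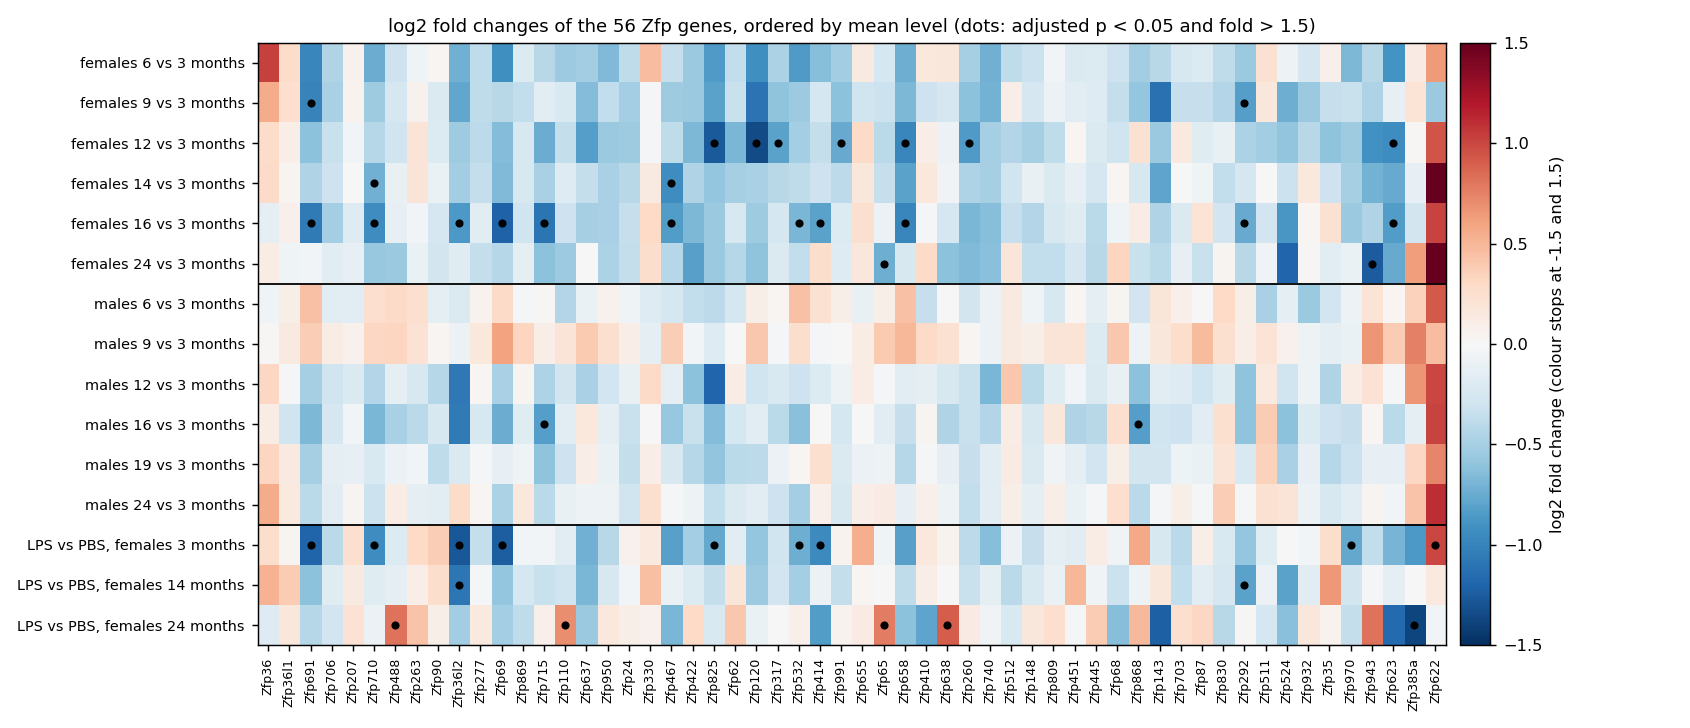
log2 fold changes of the 56 Zfp genes (columns, from the highest mean level on the left) in 15 comparisons (rows: each older age against 3 months in PBS females and PBS males, and LPS against PBS in females of 3 ages), with dots where the adjusted p is under 0.05 and the fold over 1.5. At 16 months in females 11 genes carry a dot, all of them lower, whereas for LPS at 24 months 4 of the 5 genes with a dot are higher.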

How the data were processed

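RNA of sorted microglia from 64 mice was measured in bulk, with 1 mouse per library. Per the labels and the study's methods, the authors used HISAT2 2.0.4 for mapping to the mm10 genome, Bowtie2 2.2.5 for mapping to coding genes, and RSEM 1.2.12 to estimate FPKM. They removed genes averaging under 10 FPKM, and adjusted the values for batches with ComBat_seq. The deposited values, treated here as a score, are these adjusted FPKM, nearly all rounded to whole numbers. The batches are not named, so no within-batch value can be given, and the depth is unknown. Adjustment over all libraries can remove or add differences between groups that batches do not cross.

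The symbol rule took 56 of 5647 genes. Values were tested as log2(value + 1) with limma 3.58.1 (trend, in R 4.3.3, with statmod 1.5.0 for the block) over all 5647 genes, with Benjamini-Hochberg adjustment over all of them. A call required a fold above 1.5 on that scale together with an adjusted p below 0.05, which understates changes of low genes. PBS females, PBS males, LPS series and the mice of the 6 ages that both sexes share were fitted separately. The named genes are the Zfp36 family, the 5 other members of highest mean and the members called in 8 main comparisons, and genes called only at other ages (Zfp260, Zfp991, Zfp317, Zfp658, Zfp623, Zfp467 and Zfp868), or named for a known role (Zfp809, Zfp445, Zfp410 and Zfp143), were added after their values were seen. Members and lists were chosen with earlier results of these data known. Samples with the same replicate number in their titles did not deviate together. The median correlation of residuals was 4.26e-05 in females, -0.00444 in males and 0.0139 in the LPS series. The study's methods use no block, and none was used here. The deposited values carry other numbers for some of the libraries, and a pairing by those was not tested. The fits were tested on simulated data. Other pseudocounts (0.5 and 5), a filter on means under 20, other scalings, a robust fit, a replicate block, fits of only the compared groups and leaving out each library were tried.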

Additional observations from a re-analysis of the deposited data

Results flagged for a closer look

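In groups of 4 to 10 libraries, a library was singled out where its gap to the next value, divided by the range of its group, passed Dixon's 95% limit. This held in 15 of 110 gene and group pairs for 10 genes on which the results turn, and in 58 of 616 pairs for all Zfp genes, where chance gives about 1 in 20. Several rest on steps of 1 FPKM in groups whose other values are nearly equal.

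Zfp691 was at 209 FPKM in replicate 3 of the PBS females of 12 months, where the others had 96 to 114 FPKM. Zfp69 was at 56 FPKM in replicate 1 of the PBS females of 3 months (others 47 to 48 FPKM), at 42 FPKM in replicate 3 of the PBS males of 3 months (others 24 to 27 FPKM) and at 16 FPKM in replicate 3 of the PBS males of 24 months (others 22 to 23 FPKM). Zfp36 was at 1364 FPKM in replicate 1 of the PBS males of 3 months, where the others had 889 to 953 FPKM. Zfp36l2 was at 65 FPKM in replicate 5 of the PBS females of 14 months (others 37 to 44 FPKM) and at 34 FPKM in replicate 2 of the PBS males of 16 months (others 12 to 15 FPKM).

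Replicate 5 of the LPS females of 14 months was low in Zfp65, at 9 FPKM (others 15 to 17 FPKM), and in Zfp715, at 7 FPKM (others 21 to 26 FPKM). Zfp65 was also at 18 FPKM in replicate 1 of the PBS females of 3 months (others 19 FPKM) and at 21 FPKM in replicate 1 of the PBS males of 24 months (others 14 to 15 FPKM). Zfp532 was at 25 FPKM in replicate 1 of the PBS females of 3 months (others 24 FPKM) and at 25 FPKM in replicate 2 of the PBS females of 14 months (others 16 to 18 FPKM). Zfp622 was at 7 FPKM in replicate 4 of the PBS females of 3 months (others 3 FPKM) and at 10 FPKM in replicate 3 of the PBS males of 16 months (others 12 FPKM).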

How the results depend on the processing

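Of 739 alternative values for 31 results on named genes, 735 kept their direction, 587 kept their call and 148 lost it. The calls of Zfp691 and Zfp710 across the female ages, of Zfp691, Zfp69, Zfp710 and Zfp36l2 for LPS at 3 months and of Zfp36l2 for LPS at 14 months were kept in every alternative run. The other 4 values turned sign because another age then differed most: across the male ages, Zfp69 was at 0.78 without replicate 3 of 3 months and at 0.60 both without replicate 4 of 16 months and without all males of 12 and 16 months, and Zfp532 was at 0.65 without replicate 4 of 6 months. With 1 library left out at a time, Zfp69 ranged from -0.93 to 0.78 there and Zfp532 from -0.79 to 0.65. The alternatives that leave out the 12- and 16-month males, split libraries by values between 0 and 1, drop genes of shared sequence or concern females of 12 and 16 months were chosen after seeing the data.

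The following are counts of called Zfp genes of the 56. Where no value for all genes stands beside them, they show only how the number of Zfp calls moved with the setting. At a mean of 20 or more, with fewer genes tested, they were 0 for females of 12 months (7 with all genes). They were 5 for 16 months (11), 0 for 24 months (2), 5 across female ages (8), 4 for LPS at 3 months (9) and 2 at 24 months (5). This filter takes out the 37 Zfp genes that average under 20 FPKM, so a call of theirs could not be kept. The 7 called at 12 months and the 2 at 24 months in females are all among them, so 0 was fixed in advance there. Scaling by median ratio and to the same total each gave 2 at 12 months, 5 at 16 months, 5 across female ages and 5 for LPS at 3 months. Calls over all genes were then 230 and 201 at 12 months, against 512 without scaling. At an unadjusted p the counts were 14 at 12 months, 9 at 24 months and 19 across ages in females, 1 at 24 months and 8 across ages in males, 15, 4 and 12 for LPS at 3, 14 and 24 months, and 1 for females against males. Of all genes 7.05% then passed for males of 24 months and 0.673% for females against males. For females of 24 months a pseudocount of 5 gave 1 and a robust fit 1. Without members of shared sequence the counts were 1 for females of 24 months and 3 for LPS at 24 months. These only take Zfp65, and for LPS also Zfp488, out of the calls of the main fit. With only the compared groups in the fit they were 7 for females of 24 months, and 16, 1 and 0 for LPS at 3, 14 and 24 months, where the cause was not tested. Calls over all genes were then 470 for females of 24 months, against 118 in the main fit. For LPS they were 1037, 33 and 91, against 635, 102 and 548. Among libraries with values between 0 and 1, which leave out the females of 16 months and so their contrast, the count across female ages was 4. Among those without, the count across male ages was 0, and it was 1 without the males of 12 and 16 months.

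The replicate numbers of the sample titles showed no pairing. With the number as a replicate block, 0 Zfp genes were called for females of 24 months and 5 across female ages, and no other count moved by over 1.5 times.

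Leaving out 1 library at a time gave 0 to 1 for females of 24 months, 2 to 12 for 12 months, 5 to 12 for 16 months and 4 to 11 across female ages, where 2 of the highest counts were without replicate 3 of 12 months. It gave 0 to 1 for males of 24 months, 3 to 6 across male ages and 0 to 1 for females against males. For LPS it gave 4 to 7 at 3 months (4 without replicate 2 of PBS), 1 to 3 at 14 months and 1 to 6 at 24 months.

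The depth of the libraries is unknown, and for most of the 56 genes, at 10 to 20 FPKM in whole numbers, rounding limits what can be seen.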
